A study of Mus musculus with 6 samples.

Results

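Iron handling was followed through 10 genes in bone marrow erythroblasts that lack the microRNA locus miR-144/451. The genes are Tfrc, Tfr2, Hfe, Steap3, Slc11a2, Fth1, Ncoa4, Slc40a1, Aco1 and Ireb2. They were taken by symbol: every probe set that the platform annotation gives to a single gene with a listed symbol was used. This gave 27 probe sets of 45101 on the array, and 10 genes of 18193 with at least 1 such probe set. Ireb2 had 1 probe set, 5 genes had 2, Steap3 and Aco1 had 3 each, Slc11a2 had 4, and Tfrc had 6, of which 3 are the manufacturer's controls for the 5′ end, the middle and the 3′ end of its transcript.

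The samples were 3 mice labelled miR-144/451 knockout (KO, numbers 493, 548 and 551) and 3 labelled wild type (WT, numbers 497, 504 and 550), with 1 Affymetrix Mouse Genome 430 2.0 array per mouse. The series describes 3 mice of each genotype; that the title numbers identify the mice is a reading and not stated, and another label gives the same numbers as a microRNA construct, whose meaning is unclear. The cells were primary bone marrow cells positive for Ter119, an erythroid surface marker, and for CD71, with high forward scatter, which selects large cells. No treatment beyond staining and sorting is given in the labels, and strain, age and sex were not used here. CD71 is the protein that Tfrc encodes, so the sort itself set a floor on that protein in both groups.

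An erythroblast takes up most of its iron as transferrin bound to the receptor TFRC, which carries it into endosomes. There STEAP3 reduces the iron and the transporter SLC11A2 moves it to the cytosol. Iron that is not sent to the mitochondria for haem is held in ferritin, whose heavy chain is FTH1, and NCOA4 delivers ferritin to lysosomes for release. SLC40A1 (ferroportin) is the exporter. The sensors ACO1 and IREB2 (iron regulatory proteins IRP1 and IRP2) bind iron-responsive elements in mRNAs such as those of Tfrc and Fth1, and so set their stability or translation.

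The mature products of the deleted locus are shown with the seed, bases 2 to 8 from the 5′ end, in capitals, because the seed is the part that pairs with a target mRNA. The sequences and positions are those of RefSeq on GRCm38.p6, all on the plus strand of chromosome 11: chr11:78073047-78073066 for miR-144-3p, chr11:78073010-78073032 for miR-144-5p and chr11:78073186-78073207 for miR-451a.
miR-144-3p: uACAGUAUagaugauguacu
miR-144-5p: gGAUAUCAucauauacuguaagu
miR-451a: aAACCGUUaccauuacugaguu
The 3 seeds differ from each other. Target sites in the iron genes were not searched here, and 0 of the 10 genes lie on chromosome 11, which carries the locus.

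No iron gene passed the test between KO and WT erythroblasts. The probe sets with an unadjusted p under 0.05 were those of 3 genes, a share near that of the whole array. Tfr2 was higher on both of its probe sets, and Ncoa4 and Hfe were lower on both of theirs. Values are log2 intensities, and differences are KO minus WT with limma's moderated standard error over 3 arrays per group. Of the 27 probe sets, 0 were called at an adjusted p under 0.05, against 0.355% of all 45040 tested, and 6 had an unadjusted p under 0.05 (22.2%, against 19.8% of all). The KO and WT arrays did not overlap in 9 of the 27 (33.3%, against 26.0% of all), with KO lower in 7 (15.3% of all) and higher in 2 (10.7% of all). The share with an unadjusted p under 0.05 was near that of the whole array. The non-overlap share was above that of the array for KO lower and below it for KO higher, which was not tested. Probe sets of the same gene are not independent. Of the 27, 25 had a mean at or above the array-wide median level, while the shares of the array include dim probe sets. The median difference was -0.07 over the 27 probe sets and -0.04 over all.

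**Figure D1:**
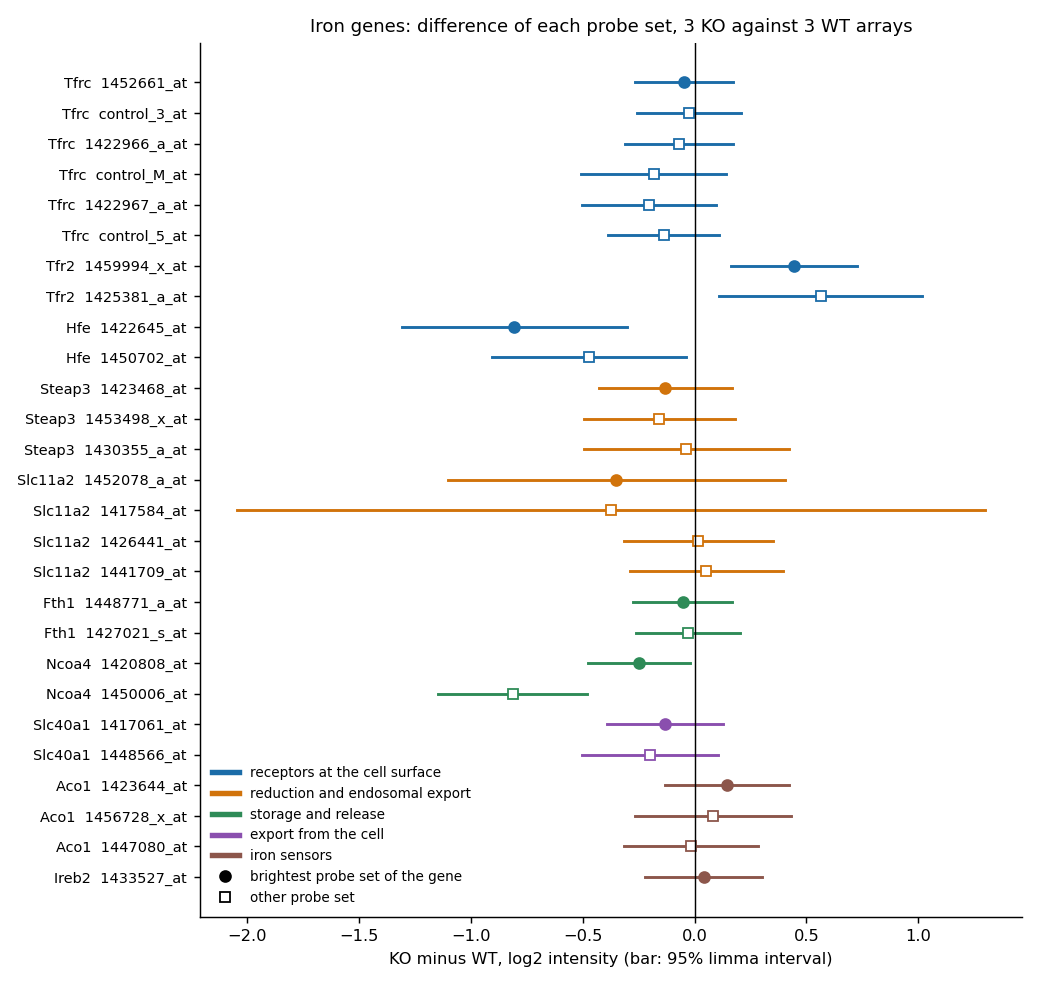
KO minus WT difference of each of the 27 probe sets (horizontal axis, log2 intensity), with limma's 95% interval as a bar, coloured by role, with filled circles for the brightest probe set of a gene and open squares for the others. The intervals of both Tfr2 probe sets lie above 0, those of both Hfe and both Ncoa4 probe sets below 0, and the other 21 cross 0.

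On the receptor side, Tfrc was almost level between the genotypes. Its brightest probe set, 1452661_at, read 12.96 in WT 497, 12.99 in WT 504 and 13.0 in WT 550, against 12.95 in KO 493 and 12.93 in both KO 548 and KO 551. Values below keep this order of mice. All KO values were below all WT values, yet by no more than a few hundredths. The difference was -0.05 ± 0.09 (SE, adjusted p = 0.817), with a 95% interval of -0.26 to 0.17. The other 5 Tfrc probe sets were at -0.20 to -0.02, all with intervals that include 0.

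The Tfrc control probe sets show the same transcript at different places. Toward the 3′ end the level ran from 11.63 to 11.77 in WT and from 11.63 to 11.69 in KO, so the groups overlapped. At the 5′ end it was 9.01, 8.96 and 8.95 in WT and 8.92, 8.71 and 8.88 in KO, with KO 548 lowest (-0.14 ± 0.10, adjusted p = 0.507). The 3′ minus 5′ signal of Tfrc, a measure of how complete the labelled RNA was, was 2.64, 2.81 and 2.68 in WT and 2.71, 2.95 and 2.81 in KO, which overlap (difference 0.11, exact two-sided permutation p = 0.3, where 3 arrays against 3 allow no p below 0.1). The same measure for beta-actin did not overlap, at 1.65 to 1.67 in WT and 1.82 to 1.86 in KO, while for Gapdh it was 1.03 to 1.09 and 1.0 to 1.05. The part of RNA completeness in the differences given here was not tested.

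Tfr2 encodes the second transferrin receptor, which in erythroid cells associates with the erythropoietin receptor and in liver takes part in iron sensing. Probe set 1459994_x_at read 10.84, 10.92 and 11.07 in WT and 11.29, 11.53 and 11.34 in KO. Probe set 1425381_a_at read 10.16, 10.16 and 10.61 in WT and 10.79, 11.18 and 10.65 in KO. On both, every KO array was above every WT array and KO 548 was the highest, and the second left a gap of only 0.04 between WT 550 and KO 551. The differences were 0.44 ± 0.12 (1.36-fold, adjusted p = 0.135, 95% interval 0.16 to 0.72) and 0.56 ± 0.19 (1.48-fold, adjusted p = 0.187, 95% interval 0.11 to 1.01). With an intensity trend and a robust prior in limma, which called 3.53% of all probe sets, the first was called (adjusted p = 0.0264) and the second was not (adjusted p = 0.104). The identifier of the first, 1459994_x_at, marks a set with probes that can also match other sequences.

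Within each array, the signal of Tfr2 minus that of Tfrc (the brightest probe set of each) was -2.12, -2.07 and -1.93 in WT and -1.66, -1.40 and -1.59 in KO. The KO arrays were all above the WT arrays (difference 0.49, exact two-sided permutation p = 0.1, the smallest possible). Since Tfrc spanned only 12.93 to 13.0 over all 6 arrays, this contrast mostly restates the Tfr2 values above and is no separate support for them. The value carries the change in Tfr2 relative to Tfrc and not their relative amounts, since probe sets differ in brightness.

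Hfe encodes a protein related to MHC class I that binds TFRC and whose loss causes iron overload. Probe set 1422645_at read 7.99, 7.55 and 7.15 in WT and 6.86, 6.66 and 6.75 in KO. The WT mice spread widely, with WT 497 the highest, and the KO mice lay close together below them. The difference was -0.81 ± 0.21 (0.572-fold, adjusted p = 0.132, 95% interval -1.31 to -0.30), and it was -0.59 without WT 497. The other probe set, 1450702_at, was dim, with a mean below the array-wide median level of 5.70. It read 5.31, 5.50 and 5.07 in WT and 5.15, 4.63 and 4.69 in KO, so that KO 493 lay inside the WT range (-0.47 ± 0.18, adjusted p = 0.225).

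Summed marker signals of several blood cell types, erythroid cells included, were lower on the KO arrays than on the WT arrays, although no marker gene was called. In bulk RNA, fewer cells of a type and less RNA per cell cannot be told apart. The median log2 over all probe sets was also lower in KO, at 5.62 to 5.68 against 5.73 to 5.78 in WT. The part of that shift in the sums was not tested. Of 15 macrophage markers, 0 were called and 12 were lower in KO. Their summed linear intensity, in which the brightest genes weigh most, ran from 10359 to 13225 in WT and from 8719 to 9757 in KO. Their mean log2 overlapped between the groups, at 8.29 to 8.87 in WT and 8.2 to 8.39 in KO. Among the brightest, the complement gene C1qb spanned 11.30 to 11.74 in WT and 11.22 to 11.44 in KO, and the growth factor receptor Csf1r at 11.20 to 11.84 and 10.77 to 11.02, and 2 of the 15 (Marco and Siglec1) had a mean below the array-wide median level. The summed signal of 8 neutrophil granule genes, led by S100a9 and S100a8, ran from 47292 to 51510 in WT and from 41254 to 45831 in KO. That of 5 B cell genes, led by Cd79b and Cd79a, ran from 3842 to 6607 and from 2524 to 3531. That of 4 T and NK cell genes, led by Nkg7 and Cd3e, ran from 1155 to 1570 and from 567 to 927. Nkg7, the brightest of these, did not overlap, at 9.88 to 10.18 in WT and 8.36 to 9.49 in KO. Cd3d, Cd3e and Cd3g each overlapped between the groups. Early progenitor genes, led by Myb and Gata2 (4 measured), summed to 4633 to 5156 in WT and 3739 to 3877 in KO, and megakaryocyte genes, led by Ppbp and Pf4 (5 measured), overlapped at 5530 to 5942 and 5356 to 6534. In all of these lists 0 genes were called. The 7 measured erythroid markers, such as Slc4a1 (13.0 to 13.12 over all arrays) and Ermap (12.66 to 12.90), were bright on every array and summed to 39205 to 41059 in WT and 37276 to 38268 in KO. The part of other cells, or of erythroid stage, in the values of Hfe, Ncoa4, Slc40a1 and the other iron genes was not tested.

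**Figure D2:**
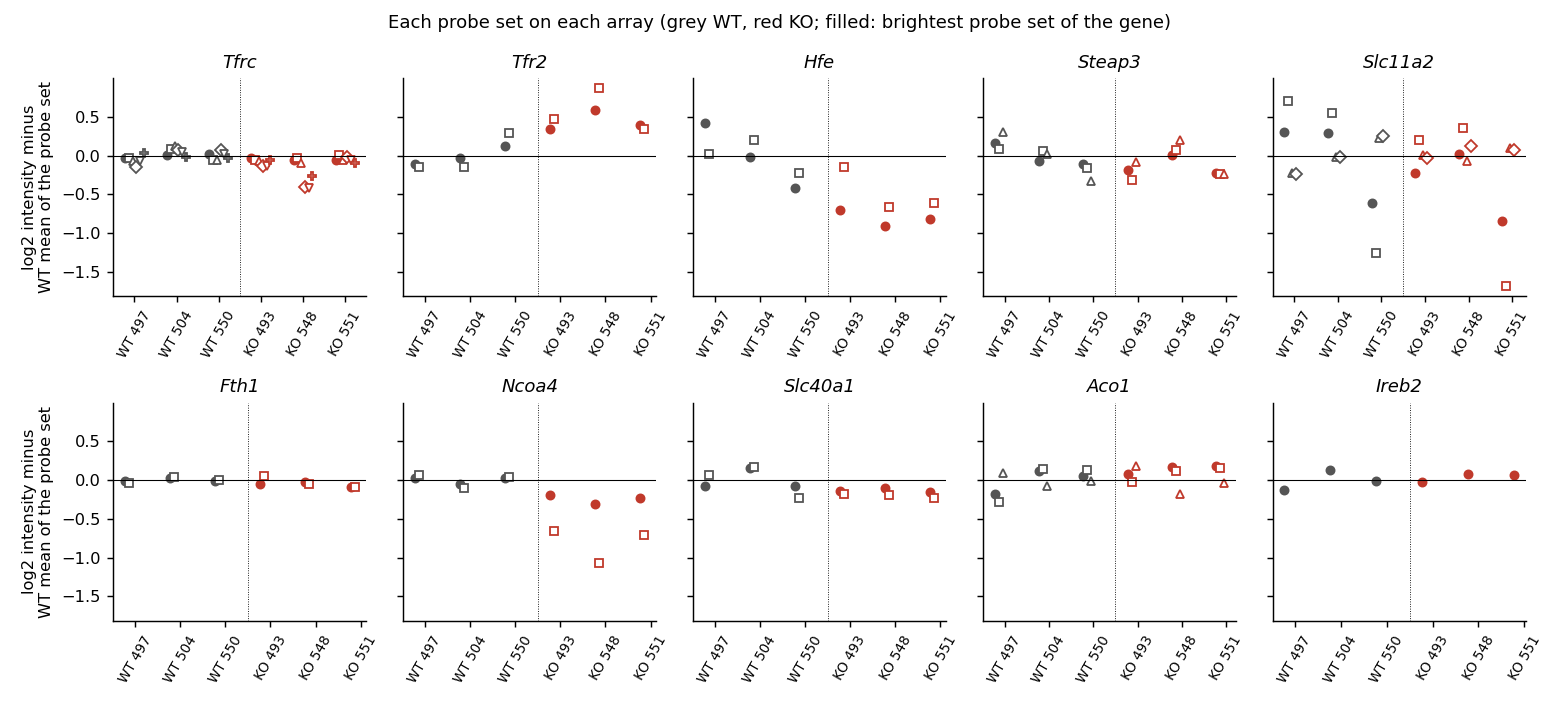
Deviation of each probe set from its own WT mean (vertical axis, log2 intensity) on each of the 6 arrays, in a panel per gene, with WT in grey and KO in red and each marker shape 1 probe set (filled for the brightest). The KO markers of Tfr2 lie above and those of Ncoa4 below all their WT markers, Fth1 lies within 0.1 of 0, and 2 Slc11a2 probe sets drop on WT 550 and KO 551.

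The reduction and endosomal export steps showed no difference past the spread between mice. Steap3, the ferrireductase of the endosome, read 9.0, 8.76 and 8.73 in WT and 8.65, 8.84 and 8.61 in KO on its brightest probe set, 1423468_at. KO 548 was above 2 of the WT mice, and the difference was -0.13 ± 0.12 (adjusted p = 0.604, 95% interval -0.43 to 0.17). The other 2 Steap3 probe sets were at -0.16 and -0.04, the latter turning to 0.08 after renewed quantile normalization and 0.05 after cyclic loess.

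Slc11a2 encodes the divalent metal transporter DMT1, and its 4 probe sets split into pairs with different behaviour. On 1417584_at the values were 10.09, 9.94 and 8.13 in WT and 9.59, 9.75 and 7.70 in KO. On 1452078_a_at they were 10.01, 10 and 9.10 in WT and 9.48, 9.72 and 8.86 in KO. Both were low on WT 550 and KO 551 and high on the other 4 arrays, so the main spread ran across the genotypes. The SD within groups of 1417584_at, 1.12, was larger than that of 99.6% of all probe sets, whose median was 0.19.

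The other pair did not drop on those arrays. Probe set 1426441_at read 8.29, 8.49 and 8.74 in WT and 8.52, 8.44 and 8.61 in KO, and 1441709_at read 7.32, 7.53 and 7.80 in WT and 7.52, 7.67 and 7.62 in KO. On both, WT 550 had the highest value of all. The signal of 1417584_at minus that of 1426441_at was therefore -0.61 in WT 550 and -0.91 in KO 551 but 1.07 to 1.80 in the other 4 mice. Slc11a2 mRNA is made in forms that differ at both ends, and which forms each probe set reads was not analysed here.

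Between genotypes, the Slc11a2 differences were -0.35 ± 0.32 for 1452078_a_at (adjusted p = 0.579), -0.37 ± 0.70 for 1417584_at (adjusted p = 0.809), 0.02 ± 0.14 for 1426441_at (adjusted p = 0.962) and 0.05 ± 0.14 for 1441709_at (adjusted p = 0.871). The interval of 1417584_at, -2.05 to 1.30, is too wide to exclude a large change either way. Without WT 550 and KO 551, an alternative chosen after the values were seen, the 2 variable probe sets were at -0.41 and -0.34, and neither was called. Without KO 551 alone, 1417584_at was at 0.28 and 1452078_a_at at -0.10, and without WT 550 alone they were at -1.0 and -0.65. These were the extremes over the 6 arrays left out in turn.

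**Figure D3:**
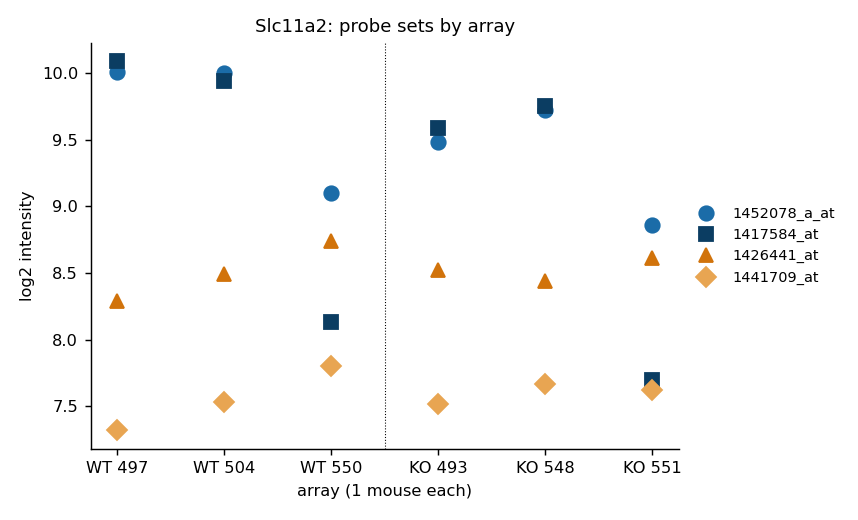
Log2 intensity (vertical axis) of the 4 Slc11a2 probe sets on each of the 6 arrays, WT left and KO right of the dotted line. Probe sets 1452078_a_at and 1417584_at are lowest on WT 550 and KO 551, while 1426441_at and 1441709_at are highest on WT 550.

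For storage, the ferritin heavy chain Fth1 was nearly constant. Probe set 1448771_a_at read 12.61, 12.65 and 12.61 in WT and 12.57, 12.60 and 12.54 in KO (-0.05 ± 0.09, adjusted p = 0.791, 95% interval -0.27 to 0.17). The KO arrays were all lower, by hundredths. Probe set 1427021_s_at was at -0.03 ± 0.10 with overlapping groups, and its identifier marks probes that can also match related sequences, of which ferritin has many. The light chain Ftl1 had no probe set of its own name alone and was not analysed here.

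Ncoa4, the receptor that takes ferritin to the lysosome, had the smallest p of the 10 genes. Probe set 1450006_at read 10.05, 9.89 and 10.03 in WT and 9.33, 8.92 and 9.28 in KO. Probe set 1420808_at, the brighter, read 12.29, 12.22 and 12.29 in WT and 12.07, 11.96 and 12.03 in KO. On both, every KO array was below every WT array and KO 548 was the lowest. The differences were -0.81 ± 0.14 (0.569-fold, adjusted p = 0.0709, 95% interval -1.15 to -0.48) and -0.25 ± 0.10 (0.843-fold, adjusted p = 0.226, 95% interval -0.47 to -0.02).

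The Ncoa4 probe sets therefore agree in direction and not in size. The signal of 1450006_at minus that of 1420808_at was -2.24, -2.33 and -2.26 in WT and -2.74, -3.04 and -2.75 in KO. The groups did not overlap (difference -0.57, exact two-sided permutation p = 0.1, the smallest possible, for a contrast chosen after the values were seen). The mean of both probe sets was at -0.53 and was not called. The call of 1450006_at depended on the fit: it passed with the intensity trend (adjusted p = 0.0124), with the filter on dim probe sets, which called 4.57% of the probe sets it kept (adjusted p = 0.0322), and with an offset of 16 before the log, which called 2.26% (adjusted p = 0.0284). Probe set 1420808_at passed with the trend alone (adjusted p = 0.0282). Without 1 array, 1450006_at was at -0.89 to -0.69 and was never called.

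Slc40a1, the iron exporter that hepcidin removes from the surface, was slightly lower in KO without a call. Probe set 1417061_at read 11.46, 11.69 and 11.46 in WT and 11.39, 11.44 and 11.38 in KO (-0.13 ± 0.11, adjusted p = 0.537). The KO arrays were all lower, but the gap was only 0.02. Probe set 1448566_at read 10.09, 10.19 and 9.80 in WT and 9.85, 9.83 and 9.80 in KO, where WT 550 equalled KO 551 (-0.20 ± 0.13, adjusted p = 0.429). WT 504 was the highest array on both, and without it the differences were -0.06 and -0.12, while without WT 550 the second was -0.31.

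The sensors were close to WT level, with no call. Aco1, whose protein works as a cytosolic aconitase when it holds an iron-sulphur cluster and as IRP1 when it does not, read 9.20, 9.50 and 9.43 in WT and 9.46, 9.54 and 9.56 in KO on 1423644_at (0.14 ± 0.12, adjusted p = 0.536, 95% interval -0.13 to 0.42). WT 497 was low and the other 5 mice lay within 0.13 of each other. The other Aco1 probe sets were at 0.08 and -0.02, the latter dim and turning to 0.05 after renewed quantile normalization and 0.04 after cyclic loess. Ireb2, whose protein IRP2 is degraded when iron is plentiful, read 10.35, 10.61 and 10.47 in WT and 10.45, 10.56 and 10.54 in KO (0.04 ± 0.11, adjusted p = 0.874, 95% interval -0.22 to 0.30), with WT 497 lowest and WT 504 highest.

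The wider iron pathway was read from 6 lists that together named 69 genes, of which 64 were measured, 54 of them outside the 10. Each gene was represented by its brightest probe set. Of the 54, 0 were called (0.385% of all genes), 9 had an unadjusted p under 0.05 (21.0% of all genes), and 18 did not overlap between the groups (28.8% of all genes). These counts were near those of all genes. The intensity trend, which called 3.53% of all probe sets, called 4 of them, Cdc14a, Smad1, Slc39a8 and Slc48a1. Renewed quantile normalization, which called 0.520% of all probe sets, called 1, Cdc14a.

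In the transferrin cycle list (12 measured), 4 genes were higher and 8 lower, with a median of -0.04 against -0.04 over all genes. Marchf8, a ubiquitin ligase that acts on TFRC, read 11.57 to 11.63 in WT and 11.38 to 11.42 in KO (-0.20 ± 0.09, adjusted p = 0.295). Exoc6, the exocyst subunit mutated in the haemoglobin-deficit mouse, was at 0.18 ± 0.11 (adjusted p = 0.385), with its other probe sets at 0.07 to 0.36. The ferritin list (6 measured, 2 higher and 4 lower, median -0.06) held Herc2, a ubiquitin ligase for NCOA4, and the iron chaperone Pcbp2. Herc2 was at -0.13 ± 0.15, with dim other probe sets at -0.24 to 0.23. Pcbp2 was at -0.07 ± 0.12, with others at -0.28 and 0.10. Of 8 genes of the iron regulatory proteins and their control, 6 were higher and 2 lower (median 0.09). These include Ciao1, of cytosolic iron-sulphur assembly, at 0.22 ± 0.11 (adjusted p = 0.317) and Fbxl5, the ligase adaptor that marks IRP2 for degradation, at -0.24 ± 0.12 (adjusted p = 0.322).

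Among 9 measured genes whose mRNAs are reported to carry an iron-responsive element, 1 was higher and 8 were lower. The median was -0.13, against -0.04 over all genes. Of the 9, 5 lie outside the 10 genes, and the lower ones include Tfrc and Fth1 at only -0.05 each. The higher one was Cdc14a, a phosphatase, which read 8.64, 8.36 and 8.73 in WT and 9.34, 9.67 and 9.68 in KO (0.99 ± 0.15, adjusted p = 0.0621). The groups were well apart, and its other 2 probe sets were at 0.23 and 0.37. The kinase gene Cdc42bpa was at -0.34 ± 0.11 (adjusted p = 0.186), and its other probe sets were at -0.16, -0.55 and -0.62.

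In the list of export and the hepcidin axis, 4 of 18 measured genes were higher and 14 lower (median -0.14), and 9 of the 18 had means below the array-wide median level. Smad1, a transducer of bone morphogenetic protein signals, read 8.24, 8.01 and 7.80 in WT and 7.26, 7.23 and 7.09 in KO (-0.82 ± 0.14, adjusted p = 0.0692). Its other probe sets disagreed, at -0.36 and, for a dim one, 0.27. Tmprss6, the protease that restrains hepcidin in liver, was at 0.58 ± 0.17 (adjusted p = 0.147), from 6.26 to 6.69 in WT and 6.86 to 7.31 in KO.

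Among 15 genes for other routes of iron and haem across membranes, 5 were higher and 10 lower (median -0.14). Slc39a8, the metal transporter ZIP8, read 10.26, 10.64 and 10.56 in WT and 10.87, 11.01 and 11.11 in KO (0.51 ± 0.14, adjusted p = 0.137), and the second probe set gave 0.70 ± 0.13 (adjusted p = 0.0779). On both probe sets every KO mouse was above every WT mouse. Slc48a1, the haem transporter HRG1, was at -0.33 ± 0.10 (adjusted p = 0.174), with its other probe set at -0.37.

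**Figure D4:**
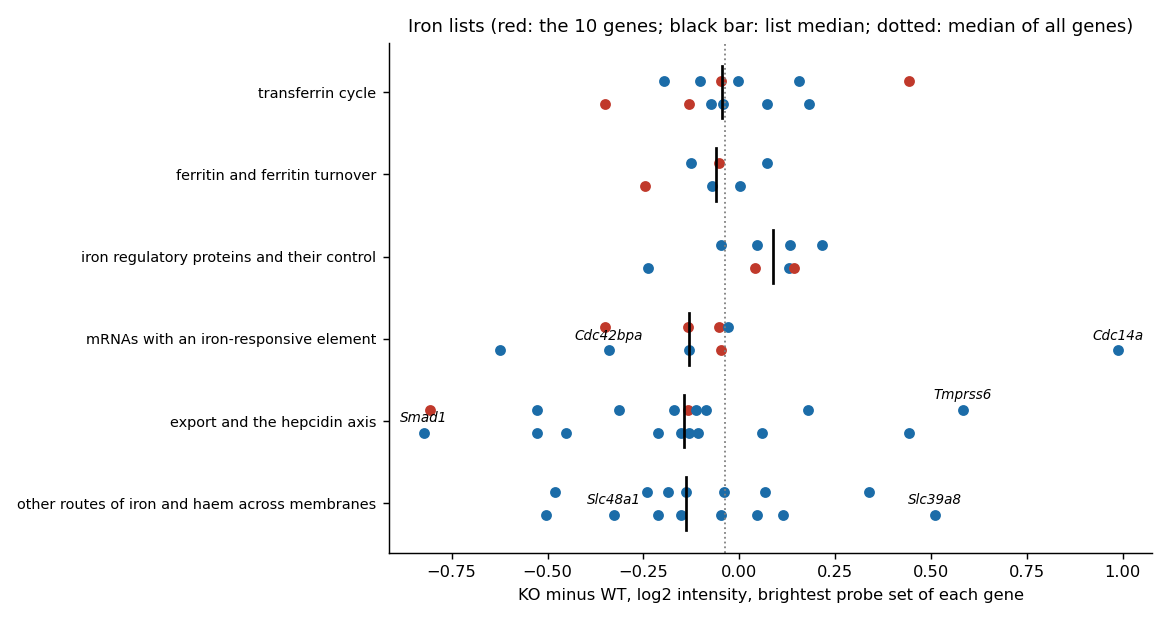
KO minus WT difference (horizontal axis, log2 intensity) of each measured gene in the 6 iron lists, with the 10 genes in red, the others in blue, the list median as a black bar and the median of all genes, -0.04, as a dotted line. Most points lie between -0.5 and 0.5, with Cdc14a at 0.99 and Smad1 at -0.82 farthest out among the genes outside the 10.

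The promoters of the iron genes were read for the hexamers that the erythroid factor GATA1 can bind. The hexamer AGATAA was searched, then TGATAA, then AGATAG and last TGATAG, on both strands in the 250 bases before each annotated start. RefSeq windows were found for 8 of the 10 genes, 17 in all. A hexamer was present in 3 of the 17 windows, each time once, against 26.5% of all 32851 windows. Of the genes with an unadjusted p under 0.05, Tfr2 and Ncoa4 had a match in 1 window each and none in their other windows, and Hfe had none. The 3 matches are shown as 30 bases each, to give each hexamer with its flanks. The hexamer is in capitals, 5′ to 3′ along the gene (GRCm38.p6).
Tfr2, chr5:137570902-137570931, plus strand: gcctgtcagggcTGATAAggggccctctag
Ncoa4, chr14:32159750-32159779, plus strand: ttagagacttacTGATAGgcacgaaaatga
Steap3, chr1:120271108-120271137, minus strand: gtccggagagtgTTATCTccctccagttat
The sites begin 61, 125 and 45 bases before a start of Tfr2, Ncoa4 and Steap3. A match describes these letters and not binding, and the differences of Tfr2 and Ncoa4, with a match each, had opposite signs.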

How the data were processed

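The authors deposited RMA intensities per probe set, as the submitters' processing notes state without software or version. RMA normally scales arrays to a common distribution, which can hide a change shared by most transcripts. The deposited arrays were not fully level, with a median log2 of 5.73 to 5.78 in WT and 5.62 to 5.68 in KO. Renewed quantile normalization moved the median difference over all probe sets from -0.043 to 0.016. The part of this shift in the small differences given here was not tested. All of the linear values (100%) matched 2 raised to a 2-decimal exponent within 0.0051, and log2 of them was used without a pseudocount. Of 64 control probe sets, 61 were left out and the 3 for Tfrc kept, leaving 45040. Gene names came from the platform annotation, updated through RefSeq identifiers (99.4% matched). Members are named by rule, in full. For each list, called genes or else the 2 with the smallest p outside the 10 were named, and for each marker list the 2 brightest. limma 3.58.1 in R 4.3.3 (lmFit, eBayes) was fitted on all 45040, with Benjamini-Hochberg adjustment and a threshold of 0.05, and was tested on simulated data. Groups came from sample titles. The number of arrays, 3 per group, limits precision. The genes and lists were chosen with earlier results of these data known. Alternatives covered the variance model, dim probe sets, normalization, an offset of 16, an ordinary test, title numbers, probe set choice and each array left out.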

Additional observations from a re-analysis of the deposited data

How the results depend on the processing

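Calls among the 27 probe sets of the 10 genes were 0 by limma, which called 0.355% of all probe sets. With the intensity trend and robust prior, which called 3.53% of all, 3 were called. The filter on dim probe sets called 1 of the 25 it kept, against 4.57% of all it kept. The offset of 16, which called 2.26% of all, called 1. Calls were 0 under the other planned settings and without any single array, where the leave-outs called 0.0178 to 0.0511% of all probe sets. Calls among the 54 other iron genes, 0 by limma, were 4 with the trend, 2 of the 37 kept with the filter, and 2 with the offset. Renewed quantile normalization, which called 0.520% of all probe sets, called 1 of them. The direction changed for some values that were not called: Steap3 1430355_a_at was at 0.081 after renewed quantile normalization, 0.054 after cyclic loess and 0.035 with a block for low and high title numbers. Aco1 1447080_at was at 0.051, 0.044 and 0.035 under the same settings. With that block, Slc11a2 1417584_at was at 0.085, 1426441_at at -0.043 and 1441709_at at -0.03. Without WT 550 and KO 551, chosen after seeing the data, Herc2 was at 0.06 and Pcbp2 at 0.055. The cause of these changes was not tested. Leaving out 1 array gave ranges that include 0 for Steap3 1430355_a_at (-0.2 to 0.115), Slc11a2 1417584_at (-1.002 to 0.283), 1426441_at (-0.092 to 0.133) and 1441709_at (-0.062 to 0.178), Aco1 1456728_x_at (-0.055 to 0.155) and 1447080_at (-0.113 to 0.067), Ireb2 (-0.023 to 0.107), the Tfrc 3′ control (-0.05 to 0.02) and Pcbp2 (-0.133 to 0.022). Both probe sets of Tfr2, Hfe and Ncoa4 kept their direction under every setting that held them. No paired analysis was possible because no title number occurs in both groups. Probe sets with low signal over background, such as 1450702_at of Hfe, have less certain sizes.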

Other observations

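Other transducers of bone morphogenetic protein signals, named after their values were seen, had values in both directions. Smad5, which acts beside SMAD1, was at 0.44 (adjusted p = 0.19), the common partner Smad4 at -0.11 (adjusted p = 0.718), the inhibitor Smad7 at -0.53 (adjusted p = 0.19) and the target Id1 at -0.17 (adjusted p = 0.609). None was called by limma, and the difference between Smad1 and Smad5 was not tested.

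Pfn2, an actin-binding profilin on the list of mRNAs with an iron-responsive element, was at -0.62 (adjusted p = 0.242). Cd163, the haemoglobin scavenger receptor of macrophages, was at -0.48 (adjusted p = 0.376). Cd163 read 9.03, 10 and 9 in WT and 9.01, 8.77 and 8.81 in KO, so the groups overlapped and WT 504 was the highest. Lcn2, a siderophore-binding protein of neutrophil granules, was at -0.21 (adjusted p = 0.369).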
